A study of Mus musculus with 3 samples.

Results

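Cadherins, other adhesion receptors and mesenchymal markers were examined in mouse pluripotent cells through 9 genes: the cadherin genes Cdh1, Cdh2 and Cdh3, the adhesion receptor genes Epcam, Pecam1 and Icam1, the filament gene Vim and the matrix genes Tgfbi and Fn1. They were chosen by name, with earlier results of these data known. All probes were taken whose gene symbol in the platform's probe table is one of these 9, with Tacstd1 accepted for Epcam. This found 15 probes of 25697 and 7 of the 9 genes, out of 16593 named genes. No probe in that table carried the symbol Epcam, Tacstd1 or Fn1, so Epcam and Fn1 are not analysed here.

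Epiblast stem cells come from the post-implantation epiblast and are called primed, whereas mouse embryonic stem cells represent an earlier, naive state. RNA of 3 cultures was hybridised to Illumina bead arrays, 1 array each. E3 epiblast stem cells, a line of hybrid background, grew in KSR medium with 5 ng/ml FGF2 on inactivated CF1 mouse embryonic fibroblasts and were detached with collagenase IV. E3R cells are epiblast stem cells of that line reverted to an embryonic stem cell-like state, and CGR8 is an embryonic stem cell line. E3R and CGR8 cells both grew on gelatin in KSR medium with 1 µM PD0325901 (a MEK inhibitor), 3 µM CHIR99021 (a GSK3 inhibitor) and 1000 U LIF, and were harvested on the dish. Line, state, medium, substrate and harvest therefore cannot be told apart where epiblast stem cells are compared with the others, and E3R and CGR8 differ in line and history. The labels name no further treatment and no number of clones or passages.

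Cadherins are transmembrane proteins that join cells through calcium-dependent contacts between like molecules, and catenins couple their tails to actin. In the textbook epithelial-mesenchymal transition, as at gastrulation, E-cadherin gives way to N-cadherin and the filament protein vimentin and fibronectin increase. Pluripotent cells of both states grow as E-cadherin-positive colonies.

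With 1 array per culture no difference has a replicate check, no test across samples exists and no p-value for a difference is given. Signals are background-corrected, quantile-normalized intensities on the log2 scale. The ± beside them is the bead standard error, which covers the beads of a probe on its array and no variation between cultures or RNA extracts. Detection meant a detection p-value below 0.01, and differences were counted from 2-fold upward. Where the dimmer array did not detect a probe, it entered at the lowest detected signal of that array (4.87 for epiblast, 5.06 for reverted and 5.10 for embryonic stem cells) or, where that was higher, at its own, and the fold is written "at least". Between 38.4% and 42.0% of probes were detected per array, and the median bead standard error of detected probes was 0.09 to 0.10. As a label check, 5 of 5 measured naive markers (Esrrb among them) were at least 2-fold above epiblast stem cells in reverted cells. In the same comparison 6 of 6 primed markers (Fgf5 among them) were lower by as much. The other listed naive marker, Nr0b1, was detected on no array. Both marker lists were chosen with earlier results of these data known, so the check is not independent of them. Signals of different probes are not compared with each other.

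The 7 genes fell into several patterns. Pecam1, Icam1, Tgfbi and Vim were lowest in epiblast stem cells and at least 2-fold higher in both other cultures. Cdh1 differed by less than 2-fold among all 3 cultures. Cdh3 was detected in epiblast stem cells alone, and Cdh2 in none. The plot of all 15 probes shows each signal with its bead error.

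**Figure D1:**
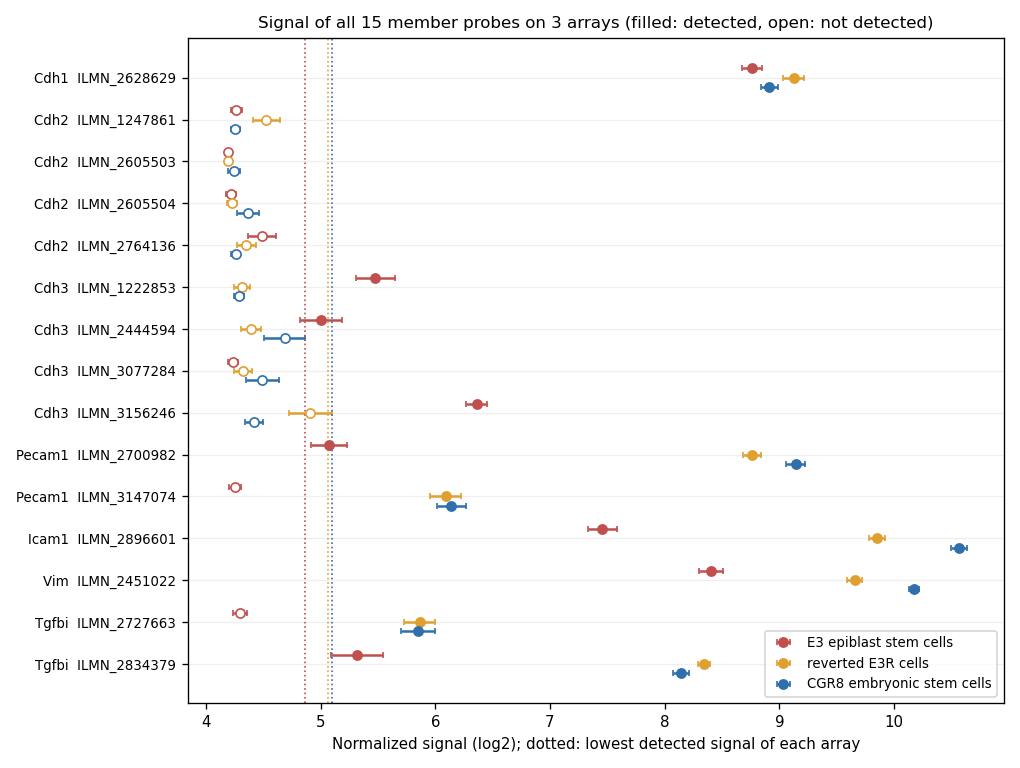
Normalized log2 signal (horizontal axis) of each member probe on the epiblast (red), reverted (yellow) and embryonic stem cell (blue) arrays, with bead standard errors as bars, filled points for detected and open points for undetected probes, and dotted lines at each array's lowest detected signal. Pecam1, Icam1, Vim and Tgfbi have the red point furthest left, Cdh3 has filled points in red only, and all 12 Cdh2 points are open.

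Cdh1 encodes E-cadherin, the epithelial cadherin that holds inner cell mass and embryonic stem cell colonies together. Its single probe (ILMN_2628629, transcript NM_009864) had raw intensities of 516 in epiblast, 557 in reverted and 593 in embryonic stem cells. The normalized signals were 8.76 ± 0.09, 9.13 ± 0.09 and 8.91 ± 0.07, so that reverted cells were highest and epiblast stem cells lowest. The differences were small beside those of other members: reverted cells were 1.29-fold above epiblast stem cells (log2 difference 0.37, bead standard error 0.13) and 1.16-fold above embryonic stem cells (0.22, bead standard error 0.12). Between epiblast and embryonic stem cells, neighbours in that order, the gap was 1.11-fold (−0.15 on the log2 scale with a bead standard error of 0.11). That sign turned with scaling to a common median, to 0.09. In the comparison of reverted with epiblast stem cells, 2543 of 7726 genes (32.9%) had a larger upward difference than Cdh1.

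Cdh3 encodes P-cadherin, a classical cadherin of placenta and of basal epithelial layers, and lies directly beside Cdh1 in the gene order of chromosome 8. It had 4 probes. The brightest (ILMN_3156246, transcript NM_001037809) had raw intensities of 152 in epiblast, 91.6 in reverted and 88.5 in embryonic stem cells, with normalized signals of 6.36 ± 0.09, 4.91 ± 0.19 and 4.42 ± 0.08. Epiblast stem cells alone passed detection on it, although reverted cells came near, with a detection p-value of 0.023. Signal in epiblast stem cells was at least 2.46-fold above reverted cells (log2 difference 1.30, bead standard error 0.21) and at least 2.39-fold above embryonic stem cells (1.26, bead standard error 0.12).

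The other Cdh3 probes were dimmer. ILMN_1222853 (transcript NM_007665) was detected in epiblast stem cells alone, with raw intensities of 112, 78.5 and 83.1 in the same order, at least 1.33-fold above reverted and 1.30-fold above embryonic stem cells. ILMN_2444594 (NM_007665) was likewise detected in epiblast stem cells alone (raw 98.8, against 81.1 and 95.7), but its signal of 5.00 lay below the bounds set by the other arrays and gave no difference. ILMN_3077284, assigned to the same transcript as the brightest probe, was detected nowhere (raw 79.0, 78.9 and 90.7). Thus 3 of 4 probes placed Cdh3 above background in epiblast stem cells, 0 of 4 did so in either other culture, and 1 of 4 reached a 2-fold difference. The difference from reverted cells was under 2-fold without background correction (log2 −0.58), with a background offset of 50 (−0.79) and with the mean of the 4 probes (−0.75).

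Cdh2 encodes N-cadherin, the cadherin of neural and mesenchymal cells that replaces E-cadherin in ingressing mesoderm. None of its 4 probes (ILMN_1247861, ILMN_2605503, ILMN_2605504 and ILMN_2764136, all assigned to NM_007664) was detected on any array. Raw intensities lay between 72.3 and 87.4, whereas the lowest detected intensity was 95.5 on the epiblast stem cell array, 94.2 on the reverted and 105 on that of CGR8. The lowest detection p-value was 0.105, for ILMN_2764136 in epiblast stem cells. Cdh2 thus has no difference in any comparison: its signal was not above background at these probes.

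Among adhesion receptors of the immunoglobulin family, Pecam1 (CD31) encodes a receptor that binds its own kind, known from endothelium, platelets and leukocytes, and also present on mouse inner cell mass and embryonic stem cells. Its brighter probe (ILMN_2700982, NM_008816) had raw intensities of 101 in epiblast, 445 in reverted and 688 in embryonic stem cells. Normalized signals were 5.08 ± 0.16, 8.76 ± 0.08 and 9.14 ± 0.08, the first just above the lowest detected signal of its array. Reverted cells were 12.9-fold above epiblast stem cells (log2 difference 3.69, bead standard error 0.18), and embryonic stem cells 16.7-fold above them (4.06, bead standard error 0.18). Only 44 of 7726 genes (0.570%) had a larger upward difference between reverted and epiblast stem cells, counting bounds at their bound.

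The other Pecam1 probe (ILMN_3147074, NM_001032378) followed the same order at lower intensity: 79.9, not detected, in epiblast, 125 in reverted and 144 in embryonic stem cells. On it reverted cells were at least 2.33-fold and embryonic stem cells at least 2.41-fold above epiblast stem cells. Between reverted and embryonic stem cells the brighter probe differed by 1.30-fold (log2 −0.38, bead standard error 0.12) and the dimmer by 1.04-fold (−0.05, bead standard error 0.18). Size depended on the low end of the scale: the log2 difference of the brighter probe between reverted and epiblast stem cells was 2.33 without background correction, 2.79 with an offset of 50 and 4.43 in the authors' processed values.

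Endothelial and blood markers were followed beside Pecam1. Of 7 endothelial markers with a probe, 3 were detected in epiblast, 1 in reverted and 1 in embryonic stem cells, with summed normalized signals of 254, 191 and 190, and Cdh5, Tie1 and Emcn were detected on no array. Tek, an angiopoietin receptor gene, was the marker detected in reverted and embryonic stem cells (log2 5.72 and 5.85). Flt1, Kdr and Esam were those detected in epiblast stem cells. In reverted against epiblast stem cells Flt1 was at least 3.36-fold lower and Tek at least 1.81-fold higher. Of 4 blood markers, including the pan-leukocyte gene Ptprc, 0 were detected on any array, and their summed signals were 81.1, 81.2 and 86.2. Undetected markers enter both sets of sums at their background signal.

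Icam1 encodes the intercellular adhesion molecule that binds the leukocyte integrin LFA-1 and is induced by NF-kappaB and by cytokines acting through STAT factors in many cell types. Its single probe (ILMN_2896601, NM_010493) had raw intensities of 247 in epiblast, 887 in reverted and 1685 in embryonic stem cells. Normalized signals were 7.46 ± 0.12, 9.85 ± 0.07 and 10.57 ± 0.07, detected on all arrays. Reverted cells were 5.25-fold above epiblast stem cells (log2 difference 2.39, bead standard error 0.14), and embryonic stem cells 8.63-fold above them (3.11, bead standard error 0.14). Reverted cells were 1.64-fold below embryonic stem cells (log2 −0.72, bead standard error 0.09), which was the largest difference among members in that comparison though under 2-fold. There 302 of 7286 genes (4.15%) lay further down.

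The upstream sequence of Icam1 is shown because its letters hold matches to sites of the factor families named above. The RefSeq promoter table of build GRCm38.p6 held windows for Icam1, Vim and Tgfbi, from 250 bases before to 50 after the start site. Capitals mark, from left to right, the E-box letters CACCTG (the reverse complement of CAGGTG, bound by Snail and Zeb factors), GGAAATTCC (a form of the NF-kappaB site) and TTCCCGGAA, a match to TTCNNNGAA (the palindrome bound by STAT factors). The 250 bases before the start site, on the plus strand at chr9:21015690-21015939, read as follows.
Icam1: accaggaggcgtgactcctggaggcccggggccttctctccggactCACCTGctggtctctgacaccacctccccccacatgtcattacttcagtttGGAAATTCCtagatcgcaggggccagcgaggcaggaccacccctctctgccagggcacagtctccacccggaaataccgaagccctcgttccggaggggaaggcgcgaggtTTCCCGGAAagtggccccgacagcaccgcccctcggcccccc

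The matches begin at −204, −153 and −42 from the start site and do not overlap. Both strands were searched, and the NF-kappaB and STAT letters were added to the search after this window had been read. Of 32851 promoter windows in the table, 20.2% held the E-box letters, 8.30% the STAT letters and 0.317% the NF-kappaB letters. The STAT and NF-kappaB matches in Icam1 were thus fixed beforehand. Because the strings differ in the number of fixed letters, these shares serve as description only. In the Vim and Tgfbi windows none of these letters was found. A match is a run of letters, and binding was not measured in these data.

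Of 4 listed integrin genes for known leukocyte partners of Icam1, Itgal had no probe and so was not measured. The other 3 (Itgam, Itgb2 and Itgax) were detected on no array, and 0 had a value in any comparison. Icam4, the next gene on chromosome 9, was near background on all arrays (log2 4.99 in epiblast, 4.90 in reverted cells, 4.67 in embryonic stem cells) and passed detection in epiblast stem cells alone.

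Vim encodes vimentin, the intermediate filament protein of mesenchymal cells, also present in cultured pluripotent cells. Its single probe (ILMN_2451022, NM_011701) had raw intensities of 415 in epiblast, 789 in reverted and 1316 in embryonic stem cells. Normalized signals were 8.41 ± 0.10, 9.66 ± 0.06 and 10.17 ± 0.05, so the order of cultures matched that of Icam1 and Pecam1. Reverted cells were 2.38-fold above epiblast stem cells (log2 difference 1.25, bead standard error 0.12), and embryonic stem cells 3.40-fold above them (1.77, bead standard error 0.11). Reverted cells were 1.43-fold below embryonic stem cells (log2 −0.52, bead standard error 0.08).

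Tgfbi encodes a secreted matrix protein that binds integrins and collagen and is named for its induction by TGF-beta. Of its 2 probes, both assigned to NM_009369, the brighter (ILMN_2834379) had raw intensities of 107 in epiblast, 349 in reverted and 376 in embryonic stem cells. Normalized signals were 5.32 ± 0.23, 8.34 ± 0.05 and 8.14 ± 0.07, with a wide bead error in epiblast stem cells, where the probe was dim. Reverted cells were 8.14-fold above epiblast stem cells (log2 difference 3.02, bead standard error 0.24), and embryonic stem cells 7.07-fold above them (2.82, bead standard error 0.24). Between reverted and embryonic stem cells the difference was 1.15-fold (0.20, bead standard error 0.09).

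On the dimmer Tgfbi probe (ILMN_2727663) raw intensities were 81.7, not detected, in epiblast, 116 in reverted and 131 in embryonic stem cells. Its bounds, at least 1.99-fold for reverted and at least 1.97-fold for embryonic stem cells over epiblast stem cells, fell just short of 2-fold, and reverted and embryonic stem cells differed by 1.01-fold. The log2 difference of the gene between reverted and epiblast stem cells was 1.88 without background correction, 2.28 with an offset of 50 and 2.30 with the mean of both probes.

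Vimentin and Tgfbi are abundant in fibroblasts, and the feeder layer was present in the epiblast stem cell culture alone, where both genes were lowest. Of 12 fibroblast markers, 2 were detected on the epiblast stem cell array (Thy1 and Dcn), 0 with reverted RNA and 1 with CGR8 RNA (Pdgfra), with summed normalized signals of 518, 251 and 259. Among these 12, the collagen genes Col1a1, Col1a2 and Col3a1 were detected on no array. Thy1 and Dcn were at least 6.38-fold and at least 2.57-fold higher in epiblast than in reverted cells. Undetected markers enter the summed signals at their background signal. The part of feeder RNA in the member values was not tested.

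Counted by gene, 5 of the 6 members with a value were 2-fold or more apart between reverted and epiblast stem cells, where 25.1% of 7726 genes were. Of these, 4 were higher in reverted cells, against 12.7% of genes, and Cdh3 alone was lower, against 12.4%. At 3-fold, 3 of the 6 (Pecam1, Tgfbi and Icam1) were counted, against 9.82% of genes. Cdh3 had a value only through the array that detected it, and Cdh2 had none. The median difference of the 6 was 1.82, against −0.02 over all genes with a value. The members were chosen with earlier results of these data known, so the shares and medians of all genes serve as description only. Scaling to a common median moved the median of all genes by −0.17. Under it, counts of all genes went from 981 higher and 957 lower to 744 and 1331, while the members stayed at 4 and 1. Members were 4 and 0 without background correction, with an offset of 50, with genes detected on both arrays or with the mean of probes.

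Between reverted and embryonic stem cells, which shared medium and substrate, 0 of 5 members with a value were 2-fold apart in either direction. So few of all 7286 genes were (3.35%, with 1.81% higher and 1.54% lower in reverted cells) that this count says nothing particular about the members. The members' median difference was −0.38, against 0.01 over all genes, with Pecam1, Icam1 and Vim lower and Cdh1 and Tgfbi higher in reverted cells. Epiblast against embryonic stem cells gave the counterpart of the first comparison: 5 of 6 members passed 2-fold, where 27.3% of 7698 genes did, 4 of them lower in epiblast stem cells (13.4% of genes) and 1 higher (13.9%). Their median was −2.29, against 0.01 over all genes. Scaling to a common median moved the all-gene median there by 0.22 and the all-gene counts from 1067 higher and 1035 lower to 1548 and 738. Each array serves in 2 of these comparisons, so their values are not independent of each other.

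**Figure D2:**
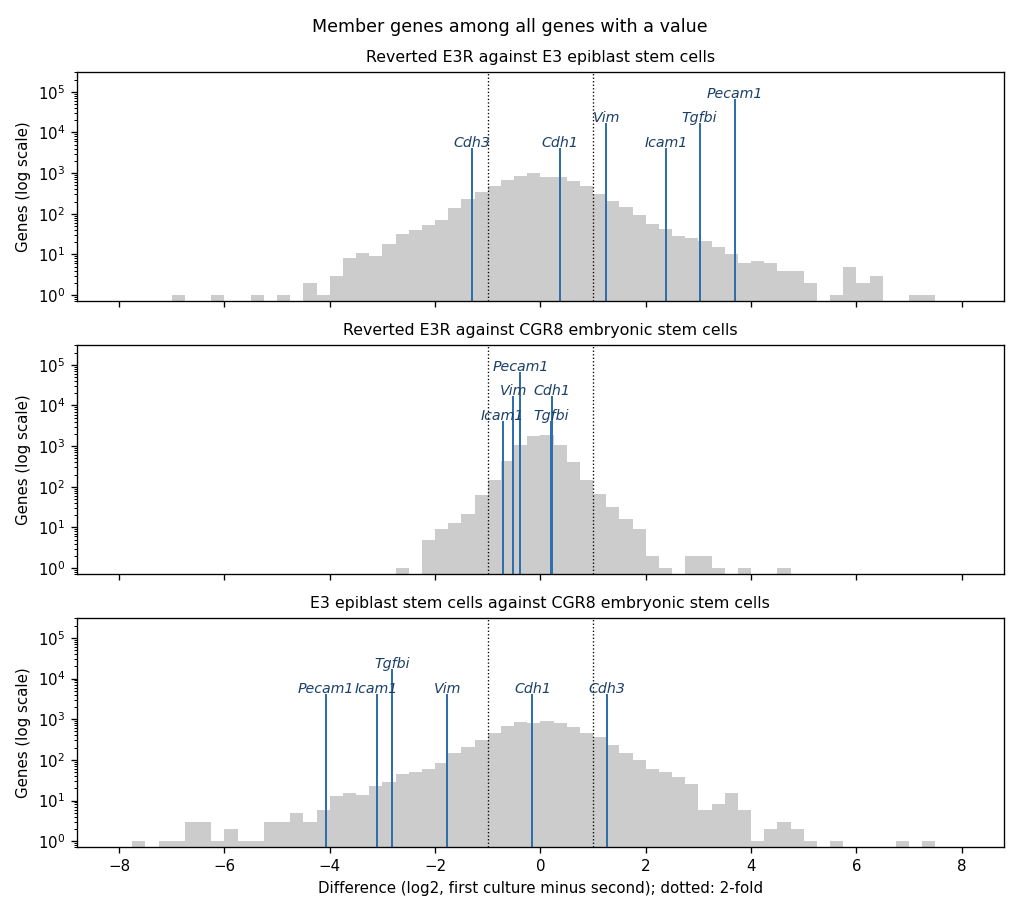
Number of genes (log scale) by log2 difference in each of the 3 comparisons (grey), with the member genes as blue lines and dotted lines at 2-fold. Pecam1, Tgfbi, Icam1 and Vim lie beyond 2-fold on one side and Cdh3 on the other in the comparisons with epiblast stem cells, and all 5 measured members lie within 2-fold between reverted and embryonic stem cells.

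The rest of the adhesion machinery was followed through 10 lists of related genes, in which 129 of 141 entries had a probe. Counts of called genes in them are to be read against the 12.7% of all genes higher and 12.4% lower in reverted than in epiblast stem cells, and a gene with only a bound under 2-fold was not called but may differ by more. Their counts are shown in the plot of genes per list.

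**Figure D3:**
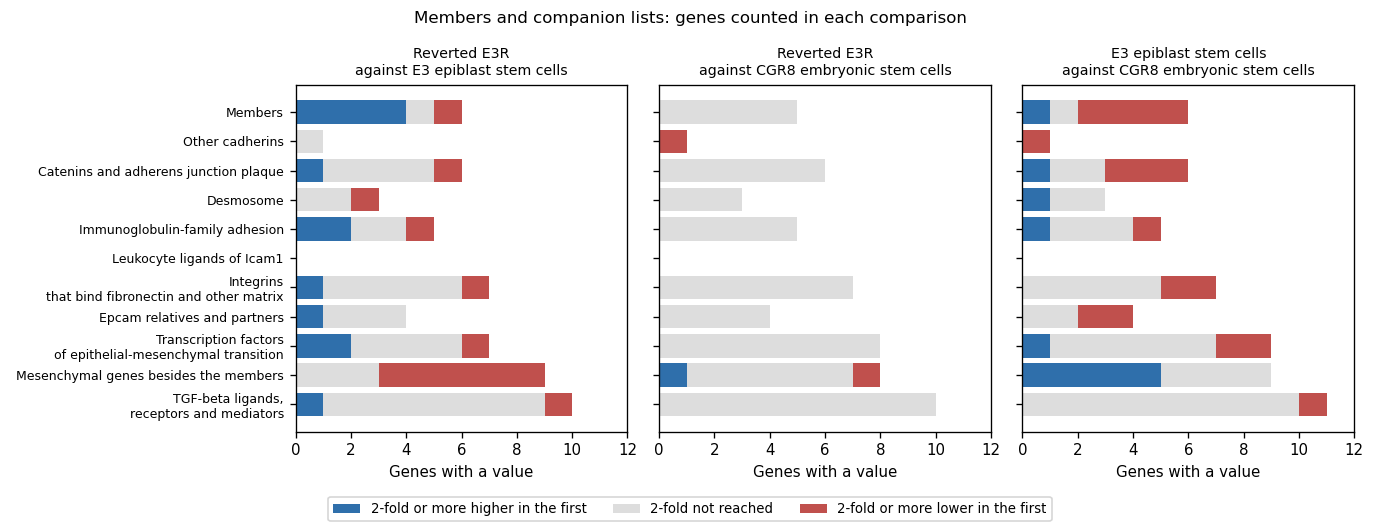
Number of genes with a value in the members and in each companion list that were at least 2-fold higher (blue), at least 2-fold lower (red) or neither (grey, bounds under 2-fold included) in the first culture of each comparison. Mesenchymal genes besides the members have 6 of 9 lower in reverted than in epiblast stem cells. Of the members 4 of 6 are higher: Vim and Tgfbi, and the adhesion receptor genes Pecam1 and Icam1.

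Other cadherins were almost all below detection. Of 20 further Cdh and Cdhr genes, only Cdhr1, a cadherin-related gene known from photoreceptors, had a value. Its log2 signals were 5.91 in epiblast, 5.75 in reverted and 6.94 in embryonic stem cells, so that reverted cells were 2.29-fold below embryonic stem cells (log2 −1.19, but −0.66 without background correction).

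Between reverted and epiblast stem cells, genes of the junction plaque were called at about the share of all genes, with few genes to count. Of 6 measured catenin and adherens junction genes, 1 lay 2-fold or more above epiblast stem cells in reverted cells and 1 below them, with a median of 0.12. Ctnnal1, an alpha-catenin-like gene, was 2.33-fold higher, and Nectin2, which encodes an immunoglobulin-family junction receptor, 2.42-fold lower. Ctnnb1, which encodes beta-catenin, the link between cadherin tails and alpha-catenin and the effector of Wnt signals, had log2 signals of 10.57, 11.54 and 11.64 in epiblast, reverted and embryonic stem cells, just under 2-fold (1.96-fold) between the first pair. Nectin3 was 1.95-fold in the other direction. None of the 6 was 2-fold apart between reverted and embryonic stem cells, where only 3.35% of all genes were. Against embryonic stem cells, 3 of the 6 were lower in epiblast stem cells: Ctnnal1 3.05-fold, Ctnnb1 2.11-fold and Ctnna1 2.02-fold. Nectin2 was 3.84-fold higher there. Of all genes 13.4% were lower and 13.9% higher in that comparison. Of 3 measured desmosome genes, the plakophilin gene Pkp2 was 2.43-fold lower in reverted than in epiblast stem cells, while Dsg2 was 1.76-fold higher. Pkp3 was not detected in epiblast stem cells and in reverted cells stood at least 1.90-fold above them.

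Further immunoglobulin-family receptors were also measured. In reverted against epiblast stem cells, 2 of the 5 with a value lay above 2-fold and 1 below (median −0.70). Jam2, a junctional adhesion molecule gene, was not detected in epiblast stem cells and stood at log2 7.87 in reverted cells and 7.83 in embryonic stem cells, at least 8.01-fold and at least 7.76-fold above them. Its relative F11r, which encodes JAM-A of epithelial tight junctions, was 2.09-fold lower in reverted cells, and Mcam was 2.04-fold higher. F11r and Mcam were both under 2-fold with an offset of 50 and also without background correction.

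Among 7 measured integrin genes, Itgb4 was at least 8.19-fold higher in reverted than in epiblast stem cells and Itga3 2.47-fold lower. Itgb4 encodes the beta4 subunit of hemidesmosomes. It was not detected in epiblast stem cells and stood at log2 7.90 in reverted cells and 7.40 in embryonic stem cells. Itga3 was under 2-fold without background correction (log2 −0.77). Subunits of fibronectin and vitronectin receptors were within 2-fold in that comparison: Itgb1 was 1.90-fold and Itgav 1.76-fold higher in reverted cells, and Itga5 1.22-fold higher. Of 4 measured relatives and partners of Epcam, the tetraspanin gene Cd9 was 8.52-fold higher in reverted than in epiblast stem cells, with log2 signals of 8.37, 11.46 and 11.84 in epiblast, reverted and embryonic stem cells. Cldn7, Spint1 and Spint2 were within 2-fold between reverted and epiblast stem cells.

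Transcription factors of epithelial-mesenchymal transition had 7 measured genes, of which 2 passed 2-fold upward and 1 downward from epiblast stem cells to reverted cells, with a median of −0.30. Zeb1, a repressor of Cdh1 in epithelial cells, was 2.56-fold higher, with log2 signals of 5.79, 7.14 and 7.65 in epiblast, reverted and embryonic stem cells, and Grhl3, a factor of epithelial differentiation, 3.07-fold higher. Snai3 was 2.42-fold lower. All of these 3 fell under 2-fold without background correction (log2 0.77, 0.71 and −0.79), while Cdh1 itself stayed within 2-fold. Grhl2, an activator of Cdh1 in epithelia, was 1.42-fold lower in reverted cells. A link between these factors and Cdh1 was not tested.

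Mesenchymal genes outside the members that passed 2-fold went the other way from Vim and Tgfbi. From epiblast stem cells to reverted cells, 6 of the 9 with a value passed 2-fold downward, against 12.4% of all genes, and 0 upward, with a median of −1.21. Tpm2, Des and Tnc had a value only through the epiblast array, which alone of this pair detected them, and Tpm2 and Des are among the 6. The count was 4 with genes detected on both arrays, and also 4 without background correction, with an offset of 50 or with the mean of a gene's probes. The tropomyosin genes Tpm1 and Tpm2, which encode actin filament proteins, were 8.27-fold and at least 6.55-fold lower, the galectin gene Lgals1 4.60-fold and the matrix protease gene Mmp2 2.89-fold lower. Tpm1 had log2 signals of 10.92 in epiblast, 7.87 in reverted and 8.63 in embryonic stem cells. Tpm2 was 1.98-fold lower with the mean of its 3 probes. Thy1 and Dcn of the fibroblast markers were lower in the same direction, at least 6.38-fold and at least 2.57-fold. Their part in these values was not tested. Between reverted and embryonic stem cells, 1 of 8 measured mesenchymal genes was higher (Mmp14, 2.44-fold) and 1 lower (Lgals1, 2.37-fold). Of all genes 1.81% and 1.54% were, and without background correction 0 of the 8 were called.

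In the TGF-beta list 1 of 10 measured genes was called higher and 1 lower in reverted than in epiblast stem cells, with a median of −0.17. Ltbp4, which encodes a binding protein of latent TGF-beta, was 2.84-fold higher in reverted cells. Tgfbr1, the type I receptor gene, was 2.32-fold lower, but 1.34-fold with the mean of its 4 probes. The ligand gene Tgfb1 was detected in epiblast stem cells alone, at log2 5.43, with reverted cells at least 1.29-fold below them. Between reverted and embryonic stem cells 0 of 10 measured genes of the list were called, where only 3.35% of all genes were. Among the 10, Tgfbr2, the type II receptor gene, was not detected in reverted cells and was at least 1.35-fold lower there.

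The genes most like each member were sought over the 3 arrays, by the distance between log2 signals centred on each gene's own mean, among 6105 genes detected on all arrays. Few genes lay within 0.25 of the brighter Pecam1 probe: 2, Grasp at a distance of 0.15 and Acss1 at 0.22. Icam1 had 8 such genes, with Pfkp (0.04) and Sox21 (0.15) nearest, and the brighter Tgfbi probe 12, with Renbp and Socs3 nearest (both 0.10). Vim had 70, led by Tspan17 (0.04) and Sun1 (0.05), and Cdh1 830, led by Angel2 and Mlf2 (both 0.01). With 3 arrays such closeness describes these arrays and nothing else.

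The dependence of the differences on processing is shown for the 6 measured members. It was greatest for the genes that were dim on an array, Pecam1, Tgfbi and Cdh3, and smaller for Icam1 and Vim.

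**Figure D4:**
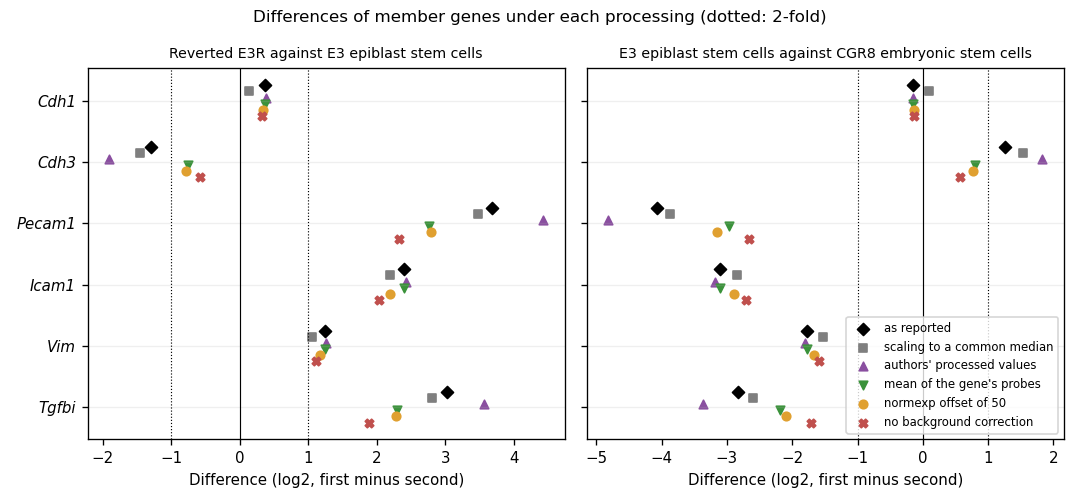
Log2 difference (horizontal axis) of each measured member under 6 ways of processing, for reverted against epiblast stem cells (left) and epiblast against embryonic stem cells (right), with dotted lines at 2-fold. Pecam1, Icam1, Vim and Tgfbi stay beyond 2-fold under all 6, whereas Cdh3 falls inside it under 3 and Cdh1 stays within 2-fold throughout.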

How the data were processed

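For each array the authors deposited, per the file headers, a raw intensity per probe, its bead standard error and a detection p-value. The submitters' processing notes name BeadStudio. Processed intensities were deposited too, and how they were normalized was not stated in the labels or headers. Raw intensities were normalized with neqc in limma 3.58.1 (R 4.3.3): background fitted from the detection p-values, an offset of 16, quantile normalization and log2. Differences were computed in Python 3.11.15 with pandas 2.3.3 and numpy 2.4.6 by code tested on simulated data. Bead errors were carried through each array's map from raw intensity to log2.

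Symbols were updated by gene identifier for 23962 of 23978 named probes (RefSeq table of GRCm38.p6). A gene with several probes took the one with the highest mean log2 signal, and every member probe is reported. Members and lists were chosen with earlier results of these data known. In each list up to 4 genes with the largest differences between reverted and epiblast stem cells were named, plus some named after their values were seen (among them Icam4, Itga5, Spint2 and Tgfb1). The number of beads per probe is unknown, and 1 array per culture limits precision. Alternatives changed background, offset, scaling, detection, fold, bound and probe choice, or used the authors' values.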

Additional observations from a re-analysis of the deposited data

How the results depend on the processing

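No paired analysis was possible because each culture had 1 array. The counts of members at least 2-fold apart (5, 0 and 5 for reverted against epiblast, reverted against embryonic and epiblast against embryonic stem cells) stayed within 1.5 times in 23 of 24 recomputations. The exception was a 3-fold threshold, which left 3 in the first comparison. By this rule a fall from 5 to 4, as where Cdh3 dropped out, counted as unchanged, and a count of 0 could only rise. The number that stayed is therefore description only. Of 117 recomputed member differences, none of those past 2-fold changed sign, and 30 moved by more than 1.96 bead standard errors. Among all genes, the numbers 2-fold apart in the same order (1938, 244 and 2102) were 1023, 75 and 1110 without background correction and 759, 50 and 877 at 3-fold. For reverted against embryonic stem cells the number was 114 with an offset of 50 and 429 in the authors' values. Counts of companion lists were also recomputed, which was decided after seeing the data: 189 of 240 stayed within 1.5 times, 40 were lower and 11 higher. List counts of 0 are under the same limit. The cause of these shifts was not tested. Signals near background limit the values of Cdh2, Cdh3 and the dim side of Pecam1 and Tgfbi.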
